A study of Schmidtea mediterranea with 40 samples.

Results

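Among 35262 transcripts of the planarian Schmidtea mediterranea, 305 had their highest mean level in Stage 2 (S2) embryos and lost most of it by Stage 4 (S4), and the 200 of these with the highest S2 means are described here. They were chosen on mean RPKM (reads per kilobase of transcript, scaled to the size of the library) over the 4 libraries of a group. The S2 mean had to be the highest of the 10 group means and at least 10 RPKM, the yolk (Y) mean at most 0.1 of it, the S4 mean at most 0.2 of it, and the mean in sexual adults (SX) under 1 RPKM. The levels in S2, Y, S4 and SX therefore describe the members and were not tested.

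RNA was sequenced from 40 libraries, 4 for each of 10 groups, and each embryo library was made from a single embryo of the sexual stock. Embryos were taken 2 days after egg capsule deposition for S2, 3 for S3, 4 for S4, 6 for S5, 9 for S6, 10 for S7 and 14 for S8. Yolk came from capsules that held no visible embryo at 8 days. The adult groups were intact animals of the clonal asexual line CIW4 (C4) and virgin, sexually mature hermaphrodites (SX). The libraries of S2 and S3 started from 100 ng of RNA and those of the other groups from 500 ng, and embryos for sequencing were picked by the study from a larger set on RNA yield, RNA quality and appearance. Oocytes and zygotes were not analysed here.

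Planarian eggs are ectolecithal: the zygote shares its capsule with many yolk cells, and the blastomeres divide scattered among them. In S2 some blastomeres form a small sphere bounded by a thin primitive ectoderm and begin a temporary embryonic pharynx, which later swallows the remaining yolk, while other blastomeres stay undifferentiated. In S3 and S4 the sphere fills with yolk, and from S5 on the temporary tissues are replaced as definitive organs form. In many animals the early embryo runs on messenger RNA laid down in the egg until transcription of its own genome takes over, and enzymes that shorten, decap and degrade messenger RNA, together with the ubiquitin system, remove what is no longer used.

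The members with a name included enzymes of ubiquitin transfer, translation initiation and messenger RNA decay, phosphatases of RNA polymerase II, serine/threonine kinases, enzymes of gluconeogenesis and gap junction proteins. Names are best protein database matches in the annotation tables of the study, and 109 of the 200 members had one. The other 91 had no hit, among them the most abundant member of all. The members had a median length of 1105 bases (range 333 to 4201), against 858 bases over all transcripts, and the medians were 1194 bases for those with a match and 952 bases for those without.

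For 31 members the study designed a 100-base target sequence for a separate hybridisation assay, and 7 of these are shown, 5′ to 3′, because they belong to members that the results turn on. Capitals mark a longest run of bases that a target has in common with the target of another member of its family, and sequences without capitals had no such partner. The targets of both ubiquitin-conjugating enzymes (E2) had 7 bases in common at most. Those of both innexins had 8 at most, in more than 1 place, and a different one of these runs is in capitals in each. The windows need not cover matching parts of the proteins.
SMED30009880 (E2 N), target: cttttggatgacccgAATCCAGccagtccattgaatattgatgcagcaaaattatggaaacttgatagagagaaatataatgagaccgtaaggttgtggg
SMED30025586 (E2 34), target: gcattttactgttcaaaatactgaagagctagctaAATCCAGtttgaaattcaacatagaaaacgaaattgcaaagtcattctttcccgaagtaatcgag
SMED30011137 (eIF4A), target: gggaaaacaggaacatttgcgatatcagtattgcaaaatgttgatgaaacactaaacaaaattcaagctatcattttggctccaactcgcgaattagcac
SMED30007542 (mRNA decapping hydrolase), target: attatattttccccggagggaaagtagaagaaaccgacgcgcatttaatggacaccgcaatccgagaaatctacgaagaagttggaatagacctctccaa
SMED30025002 (RNA polymerase II C-terminal domain phosphatase), target: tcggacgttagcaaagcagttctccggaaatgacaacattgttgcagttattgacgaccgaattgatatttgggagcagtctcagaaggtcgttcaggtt
SMED30000077 (innexin unc-9), target: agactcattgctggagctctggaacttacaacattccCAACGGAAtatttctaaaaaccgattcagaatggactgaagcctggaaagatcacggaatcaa
SMED30013987 (innexin-19), target: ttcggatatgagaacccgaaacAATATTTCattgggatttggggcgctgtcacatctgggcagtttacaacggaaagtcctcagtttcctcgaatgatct

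The members were described first by library, since the S3 embryos differed widely. The RPKM values of the 200 members summed to 32520.5 in S2 replicate 1, 23561 in replicate 2, 62159.5 in replicate 3 and 54293 in replicate 4. In S3 the sums were 22333, 61282, 5175 and 2009 in replicates 1 to 4. S3 replicate 2 was thus at the level of the highest S2 embryos, replicate 1 lay just below the lowest S2 embryo, and replicates 3 and 4 lay in and below the S4 range of 3332 to 6725. The S5 sums were 182 to 341, those of S6 44.3 to 78.1 and those of S8 25.5 to 33.4. Adults had 15.2 to 17.4 (C4) and 15.5 to 20.3 (SX). Yolk replicate 2 had 267 and the other 3 yolk libraries 59.9 to 64.6. In these whole embryos, fewer cells that express a transcript and less RNA per cell cannot be told apart.

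**Figure D1:**
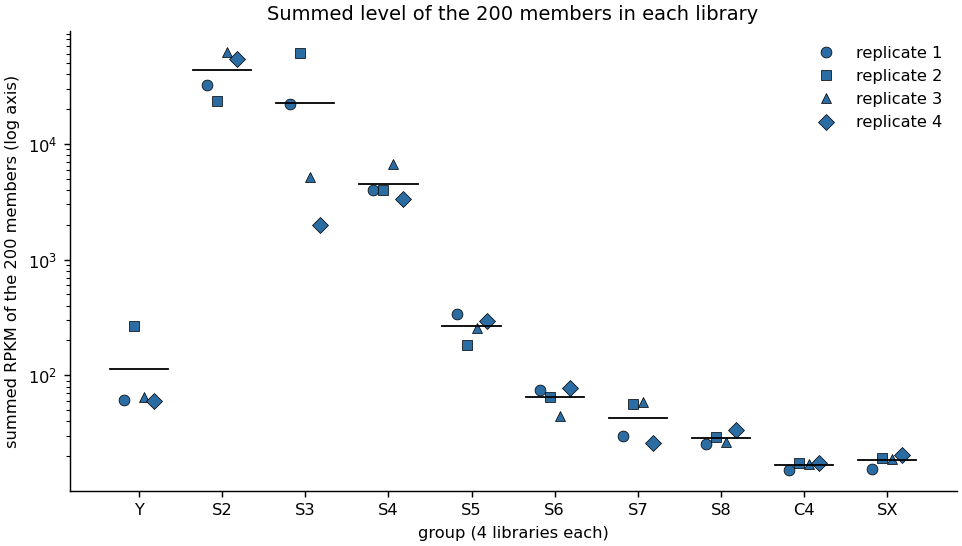
Summed RPKM of the 200 members in each library (log axis), by group, with 1 point per library, the marker shape giving the replicate number and the bar the mean of 4 libraries. The S2 libraries lay at 23561 to 62159.5, the S3 libraries spread from 2009 to 61282, and the S5 libraries lay at 182 to 341.

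The order of the libraries was shared by most members, but it was not counted over all transcripts. Of 200 members, 151 were highest in S2 replicate 3 and 44 in replicate 4, while 185 were lowest in replicate 2. The highest S2 embryo exceeded the lowest by a median of 2.93-fold over the members, and by more than 10-fold in 4. RPKM values are divided by a scaling factor (TMM) that acts on all members of a library alike. It was 0.705, 0.925, 0.533 and 0.399 in S2 replicates 1 to 4. Their shares of reads on the members, free of this factor, were 2.65, 2.50, 3.84 and 2.54%. The part of the scaling in the shared order was not tested. In S3, 197 members were highest in replicate 2 and 168 lowest in replicate 4. Replicate 2 of S3 exceeded every S2 embryo in 51 members, and replicate 4 of S3 fell below every S4 embryo in 137. With this spread no member had all S2 embryos above all S3 embryos, which held for 0.42% of all transcripts, although the S3 mean was a median of 0.524 of the S2 mean (range 0.137 to 0.956).

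Members were also set beside markers of the temporary tissues and beside yolk. In S2 the members took 2.50 to 3.84% of all reads, in S3 1.41, 5.14, 0.242 and 0.166% in replicates 1 to 4, and in S4 0.193 to 0.463%. The 100 transcripts with the most reads in yolk took 47.5 to 68.8% of the reads in S2 and 47.2 to 74.1% in S3. Outside those 100 transcripts the members took 4.77 to 9.65% of reads in S2, 3.78, 9.72, 0.935 and 0.407% in S3 replicates 1 to 4, and 0.656 to 1.32% in S4, so the low S3 replicates 3 and 4 were low on this scale too.

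Gelsolin-like and spondin1-like mark the primitive ectoderm, although the study also detected both in blastomeres at S2 and gelsolin-like in the pharynx at S3 and S4, so that their values are not those of the ectoderm alone. Gelsolin-like had 394, 306, 69.6 and 1.501 RPKM in S2 replicates 1 to 4 and 276, 506, 67.9 and 471 RPKM in S3 replicates 1 to 4. Spondin1-like had 150.5, 92.0, 13.0 and 0 RPKM in S2 and 73.4, 60.5, 0.805 and 28.3 RPKM in S3. The pharynx marker VAL-like had 339, 528, 1.66 and 1.296 RPKM in S2 and 504, 392, 1.16 and 612 RPKM in S3. Among the S2 embryos all 6 markers were thus lowest in replicate 4, and they differed widely among the embryos of S2 and of S3. The S3 embryos that were low in the members differed in these markers, since VAL-like was at 1.16 RPKM in replicate 3 and 612 RPKM in replicate 4. The part of these tissues in the spread of the members was not tested.

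**Figure D2:**
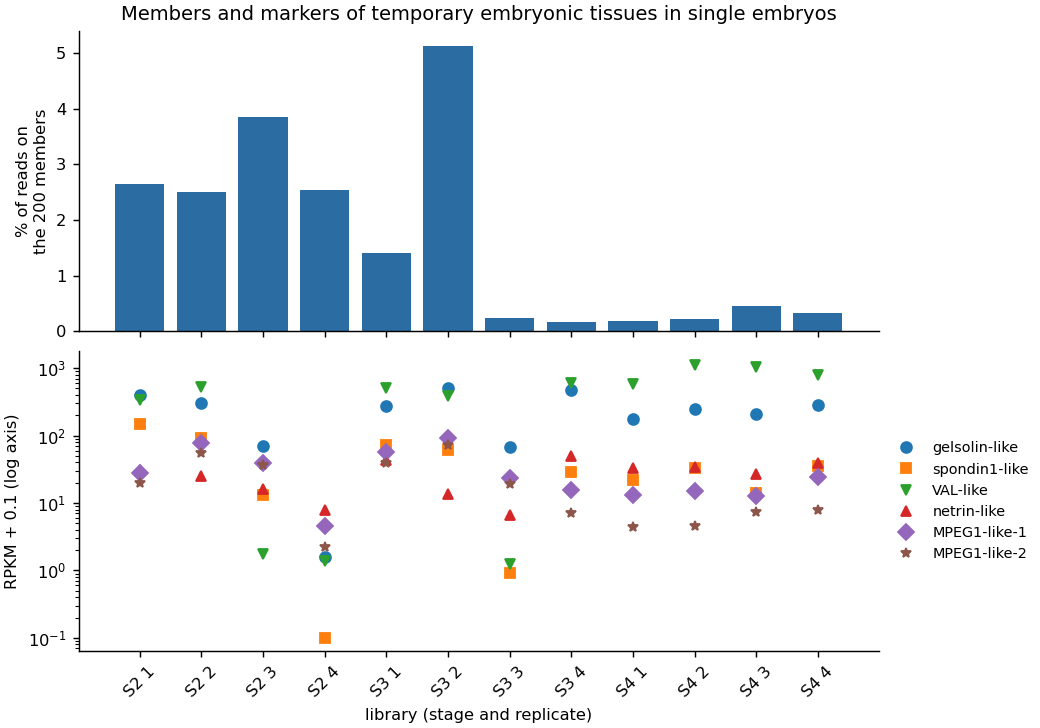
Top: percent of reads on the 200 members in each S2, S3 and S4 library. Bottom: RPKM + 0.1 (log axis) of 6 markers of the primitive ectoderm (gelsolin-like, spondin1-like) and the temporary embryonic pharynx (VAL-like, netrin-like, MPEG1-like-1 and -2) in the same libraries. The members took 5.14% of reads in S3 replicate 2 and 0.166% in S3 replicate 4, and VAL-like was at 1.296 RPKM in S2 replicate 4 and 612 RPKM in S3 replicate 4.

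The levels in yolk, S2 and S4 follow from the choice of members and are given as a description. The median RPKM over the members was 0.243 in yolk, 102 at S2, 56.7 at S3 and 12.4 at S4. It was then 0.753 at S5, 0.187 at S6, 0.0978 at S7 and 0.0554 at S8. In 37 members no read was counted in any yolk library, and all 200 had the 4 S2 libraries above the 4 yolk libraries (8.82% of all transcripts did). All 4 S2 libraries were above all 4 S4 libraries in 196 members (3.87% of all transcripts). The choice of members nearly fixed both counts, and nothing is read from them. All 4 S4 libraries were above all 4 S5 libraries in 199 members, against 6.27% of all transcripts. The number of members with a mean of at least 1 RPKM fell from 200 in S4 to 75 in S5, 10 in S6 and 3 in S8. The libraries of S2 held 5980977 to 9446805 reads and those of S3 5732581 to 11576384, and in these a single read on 1 kilobase of transcript stood for 0.115 to 0.309 RPKM. In the yolk libraries such a read stood for 0.273 to 0.517 RPKM, more than the yolk median of 0.243, so low levels there were poorly measured.

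**Figure D3:**
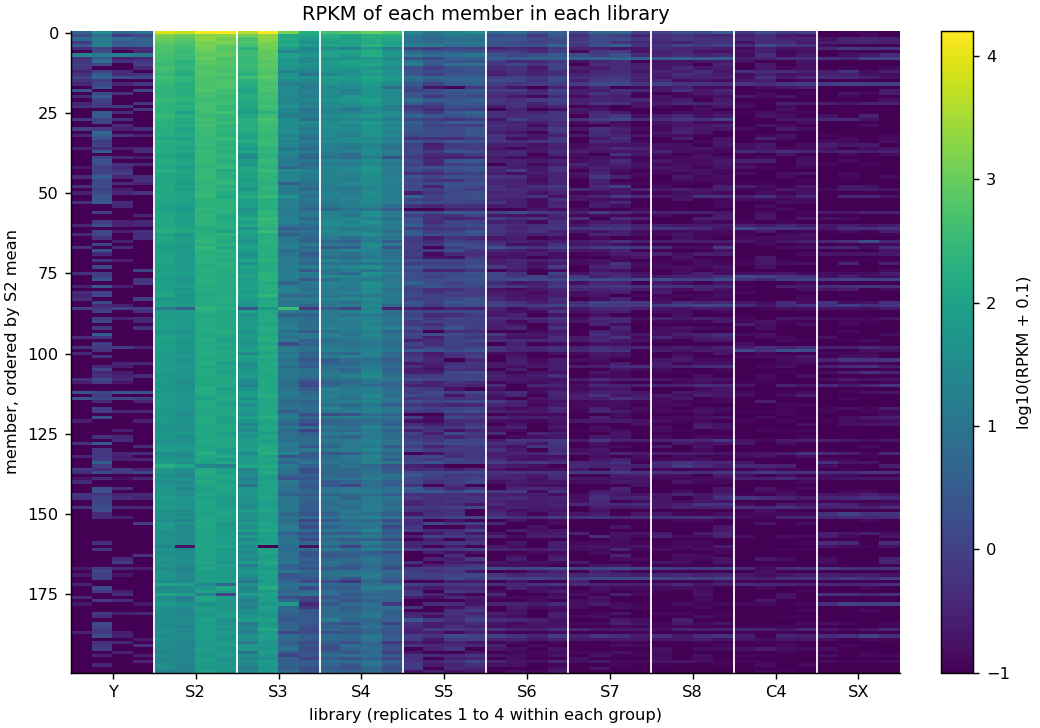
Level of each of the 200 members (rows, ordered by S2 mean) in each of the 40 libraries (columns, replicates 1 to 4 within each group), as log10(RPKM + 0.1) by colour. Nearly all rows were brightest in S2 and in S3 replicates 1 and 2 and darkened from S4 to S8, and 75 rows had a mean of at least 1 RPKM in S5.

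The test of the later fall used stages without a limit of their own in the choice of members, which used their means only in that S2 had to be the highest. The S4 limit lies between S3 and S5, however, so the choice favoured transcripts that fell across that step. The SX limit and the need for S2 to be highest also kept out transcripts that rise late and stay high in adults. The shares of all transcripts, lower or higher, are therefore not a like comparison for S3 to S5 or for the later steps. Each transcript was fitted with limma on log2(RPKM + 0.1) over the 32 yolk and embryo libraries, Benjamini-Hochberg adjustment ran over the 31489 transcripts tested, and an adjusted p under 0.05 was called. From S3 to S5, 199 of the 200 members fell and 0 rose (0 also at an unadjusted p under 0.05 and with voom on rebuilt reads), against 9.83% of all transcripts lower and 26% higher. The median log2 fold change of the members was -5.18, with a range from -7.58 to -3.01, and that of all tested transcripts 0.48. In 197 members all 4 S3 libraries were above all 4 S5 libraries, against 6.79% of all transcripts. Since S3 replicates 3 and 4 stood apart, the fit was repeated without them. The count was again 199, and the median changed to -6.95.

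The member that did not pass was SMED30029109, described as death-associated protein kinase 3, a kinase known in vertebrates for its part in cell death and actomyosin contraction. It had 24.8, 0.0995, 116 and 121 RPKM in S2 replicates 1 to 4 and 29.3, 0, 6.56 and 0.0706 RPKM in S3, so that 1 embryo of S2 and 2 embryos of S3 had next to none. Its log2 fold change from S3 to S5 was -3.01 (SE 1.42, adjusted p = 0.0983 by limma).

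From S5 to S6, 58 members fell and 0 rose (0 also at an unadjusted p under 0.05; 1 rose in a fit of these 2 stages alone), against 6.71% of all transcripts lower and 16.3% higher. The median log2 fold change was -1.47 for the members and 0.25 for all tested transcripts, 192 members had a negative value, and 101 passed an unadjusted p of 0.05. In 118 members all 4 S5 libraries were above all 4 S6 libraries (in 1 the reverse), against 13.3% of all transcripts. The number called depended on the analysis, with 9 members at a pseudocount of 1 RPKM, 19 with voom on rebuilt reads and 114 in a fit of S5 and S6 alone. It was 109 without S3 replicates 3 and 4, and ranged from 22 without S6 replicate 3 to 90 without S3 replicate 2. From S6 to S8, 2 members fell and 0 rose (0 also at an unadjusted p under 0.05 and with voom), against 2.26% lower and 5.54% higher among all transcripts. The share of members called was thus no larger than the background. In 57 members, however, all 4 S6 libraries were above all 4 S8 libraries (in 0 the reverse), against 13.4% of all transcripts. The median of the members was then -0.59, with 184 negative, and 52 members were called in a fit of S6 and S8 alone. With the 13 members that had no read in S8 set to a floor of 3 reads over the group, 3 of them left out because S6 was also at or under it, the median was -0.61.

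**Figure D4:**
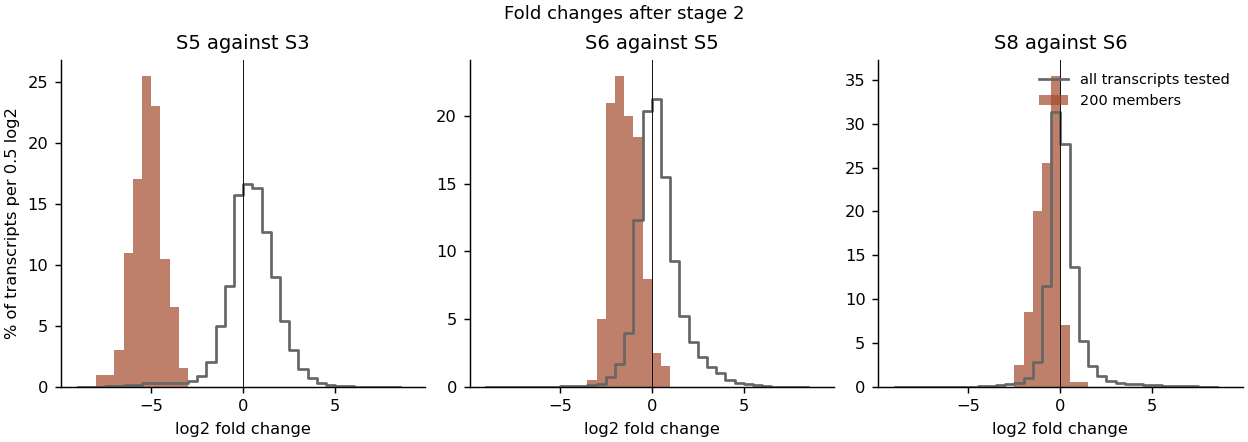
Distribution of log2 fold changes (x axis) as percent of transcripts per 0.5 log2 units (y axis) for the 200 members (filled) and all 31489 tested transcripts (line), from S3 to S5, S5 to S6 and S6 to S8. The medians of the members were -5.18, -1.47 and -0.59 and those of all transcripts 0.48, 0.25 and 0.03.

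The 10 most abundant members held 42.8% of the summed S2 level of the 200. SMED30029908, which had no hit, held 25.1% alone. It had 7704, 5679, 14032 and 15848 RPKM in S2 replicates 1 to 4, 4206, 15490.5, 1371 and 166 RPKM in S3, and 437 to 1009.9 RPKM in S4. Its S5 mean was 24.7 ± 9.99 RPKM (SD, n = 4), its log2 fold change from S3 to S5 was -6.42 (SE 0.83, adjusted p = 1.69e-06 by limma), and it was still at 1.98 RPKM ± 1.05 in S8 (SD, n = 4). SMED30032223, also without a hit, had 1509.8, 1030.0, 1767 and 1988 RPKM in S2 and 10.1 ± 2.53 RPKM in S5. Also among the 10, SMED30006790 and SMED30005037 had no hit, with 600.0 ± 212 and 499 ± 244 RPKM in S2.

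Transcripts for translation initiation and messenger RNA decay formed a group of 9 members. The eukaryotic initiation factor eIF4A, the helicase that opens the start of messenger RNAs for the ribosome, was represented by SMED30011137 and the shorter SMED30022146. SMED30011137, whose target is printed above, had 1070.2, 737, 2139 and 1283 RPKM in S2 replicates 1 to 4, 508, 2138, 151 and 63.9 RPKM in S3, 91.7 to 171 RPKM in S4 and 5.06 to 9.15 RPKM in S5. S3 replicate 2 was level with the highest S2 embryo and replicate 4 lay below all S4 embryos, and the S5 libraries lay below all of these. It fell from S3 to S5 by 5.45 on the log2 scale (SE 0.61, adjusted p = 2.48e-07 by limma) and from S5 to S6 by 2.00 (adjusted p = 0.016). An eIF4A transcript outside the members, SMED30003202, had 85.4 RPKM in S2 and was at 73.8 RPKM in S4 and 24.9 RPKM in S5. It fell from S3 to S5 as well, by 1.79 on the log2 scale (SE 0.59, adjusted p = 0.0193 by limma), and again from S6 to S8, by 2.05 (adjusted p = 0.0262). These calls of SMED30003202 held in 38 and 35 of 43 settings of the fit (adjusted p up to 0.200 and 0.207 by limma).

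A further 3 members matched 5'-3' exoribonucleases, which degrade RNA whose cap has been removed: SMED30003082, SMED30008183 and SMED30013099 had S2 means of 195, 178 and 173 RPKM and S5 means of 1.63, 1.16 and 0.910 RPKM. SMED30007542 matched the m7GpppN-mRNA hydrolase, the enzyme that removes the cap. It had 237, 204, 524 and 498 RPKM in S2 replicates 1 to 4, 151, 539, 32.1 and 11.9 RPKM in S3, and 1.56, 0.0992, 0 and 0.602 RPKM in S5. Its log2 fold change from S3 to S5, -7.58 (SE 0.97, adjusted p = 1.4e-06 by limma), was the largest of the 200. Both poly(A)-binding members, SMED30008523 and SMED30017730, whose proteins coat the tail of messenger RNAs, had 157 and 81.8 RPKM in S2, and pelota (SMED30013711), which rescues stalled ribosomes, had 90.2 RPKM. The poly(A)-binding transcripts outside the members, SMED30029768 and SMED30029484, also fell from S3 to S5, by 1.55 and 2.55 on the log2 scale (adjusted p = 0.0154 and 0.00181 by limma). Their calls held in 40 and 42 of 43 settings of the fit (adjusted p up to 0.223 and 0.0603 by limma). All 9 members of the group fell from S3 to S5, and 3 of 9 fell from S5 to S6. Such counts, here and for the groups below, stand beside 199 and 58 of all 200 members and 9.83% and 6.71% of all transcripts. No group was tested against the other members.

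The phosphatases of the C-terminal domain of RNA polymerase II, which remove the phosphates that the polymerase gains as it transcribes, had 5 members. The most abundant, SMED30025002, had 173, 138, 388 and 365 RPKM in S2, 181, 401, 39.3 and 26.9 RPKM in S3, 33.0 to 61.8 RPKM in S4 and 1.57 to 3.61 RPKM in S5. In S6 it had 0.169 to 0.345 RPKM, below all S5 libraries, and its fall from S5 to S6 was -2.97 on the log2 scale (SE 0.67, adjusted p = 0.00161 by limma). The other 4 (SMED30020719, SMED30023165, SMED30016236 and SMED30008976) had S2 means of 58.9 to 132 RPKM. All 5 fell from S3 to S5 and 4 of 5 from S5 to S6 (199 and 58 of all 200 members). The 3 further transcripts of this kind in the annotation tables, outside the members, also fell from S3 to S5.

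The ubiquitin system was the group with the most members, 19, and with the highest summed S2 level, 4399 RPKM. Ubiquitin is passed from conjugating enzymes (E2) through ligases (E3), which choose the target protein, and is removed again by ubiquitin hydrolases. E2 N (SMED30009880), which in other animals builds chains used in signalling rather than for destruction, had 786, 501, 1318 and 1463 RPKM in S2 replicates 1 to 4, 581, 1443, 130.2 and 40.7 RPKM in S3, 77.7 to 149.6 RPKM in S4 and 6.87 to 11.0 RPKM in S5. It fell by 4.82 from S3 to S5 on the log2 scale (SE 0.73, adjusted p = 1.25e-05 by limma) and by 2.62 from S5 to S6 (adjusted p = 0.00848). E2 34 (SMED30025586), with 64.6, 50.4, 137 and 120.3 RPKM in S2, was far lower and was also lowest in replicate 2. Another conjugating enzyme, E2 K (SMED30033871), reached 764 RPKM in S2 and missed the choice of members with 1.003 RPKM in SX.

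The ligases and RING finger proteins numbered 13 members, with S2 means from 54.3 RPKM (SMED30026610) to 786 RPKM (SMED30019564). SMED30019564, named for its match to a viral ICP0-type ligase, had 524, 417, 1398 and 804 RPKM in S2, 438, 1218, 158 and 75.6 RPKM in S3, and 7.15 to 19.6 RPKM in S5. SMED30005918, matching RFWD2, an E3 ligase known in mammals for the turnover of transcription factors, had 417 RPKM in S2 and the highest S4 to S2 ratio of the members (0.192). Members matched RHA1a (SMED30000410, SMED30006700 and SMED30026610) and a pair matched ATL48 (SMED30022767 and SMED30029580), RING-H2 proteins best known from plants. The 4 ubiquitin hydrolases (SMED30003263, SMED30019179, SMED30033061 and SMED30035628) had S2 means of 56.7 to 433 RPKM. Outside the members, 3 of 4 further hydrolases and both further conjugating enzymes fell from S3 to S5. All 19 members of the ubiquitin system fell from S3 to S5 and 6 of 19 from S5 to S6. These shares were close to those of all 200 members, of which 199 and 58 fell. Of 26 further ligase or RING finger transcripts in the annotation tables, 12 fell and 6 rose from S3 to S5.

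Serine/threonine kinases contributed 16 members. The most abundant, SMED30022810, matched pim-3, a kinase known in mammals for promoting survival and growth. It had 411, 313, 936 and 529.9 RPKM in S2, 307, 861, 65.7 and 30.5 RPKM in S3 and 1.37 to 3.77 RPKM in S5. It had 3.04 to 4.40 RPKM in S6 and 2.82 to 4.39 RPKM in S8, and its log2 fold change from S5 to S6 was 0.57 (SE 0.68, adjusted p = 0.612 by limma). It was at 0.274 ± 0.115 RPKM in C4. Other kinase members matched pim-2 (SMED30006055), the plant CBL-interacting kinases (SMED30028482, SMED30006831 and SMED30030649), ribosomal S6 kinases (SMED30027509 and SMED30018065), PLK4, the kinase that starts centriole duplication (SMED30016232), and protein kinase C iota, a polarity kinase (SMED30006329, 49.8 RPKM in S2). Of the 16, 15 fell from S3 to S5 and 5 from S5 to S6 (199 and 58 of all 200 members). Among 77 further annotated kinase transcripts 25 fell and 25 rose from S3 to S5.

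**Figure D5:**
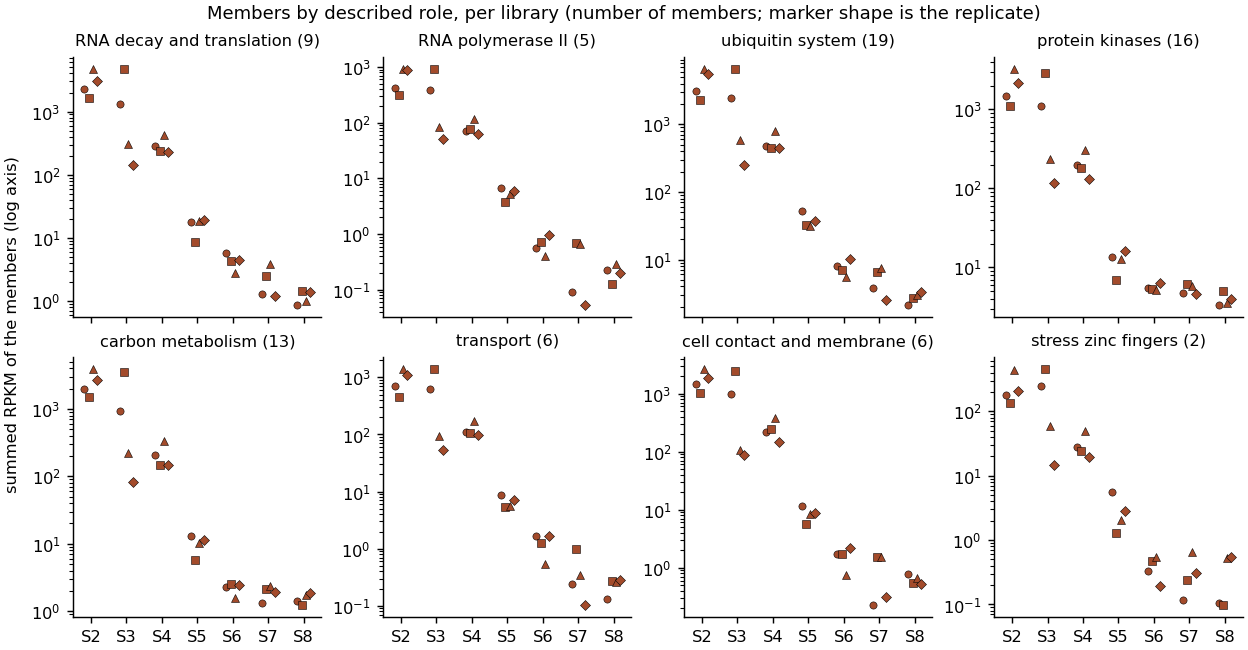
Summed RPKM (log axis) of the named members of 8 role groups in each library from S2 to S8, with the marker shape giving the replicate number and the number of members in brackets. In each group S3 replicate 4 lay below all S4 libraries and all S5 libraries lay below it. The ubiquitin system summed to 4399 RPKM in S2 and 38.1 RPKM in S5 on average.

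Enzymes of carbon metabolism had 13 members, and 7 of them matched the same enzyme, phosphoenolpyruvate carboxykinase (PEPCK), the first committed step of glucose synthesis from smaller molecules. The 7 PEPCK transcripts had S2 means of 89.4 to 282 RPKM, summing to 1149 RPKM, and summed to 482 RPKM at S3, 90.7 at S4 and 3.81 at S5. SMED30033589 had 149.9, 108, 269.9 and 269 RPKM in S2 replicates 1 to 4 and 54.9, 231, 9.98 and 5.07 RPKM in S3. It fell by 5.26 from S3 to S5 on the log2 scale (SE 0.69, adjusted p = 2.02e-06 by limma). Reads were allowed to match several transcripts, so near-identical copies may share reads, and some of the 7 may be fragments or alleles of the same gene.

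An eighth PEPCK transcript, SMED30008553, moved the other way. It had 25.8, 112, 31.6 and 44.9 RPKM in S2, 22.2 to 71.7 RPKM in S3, 173 to 304 RPKM in S5, 532 to 563 RPKM in S6 and 758 to 814 RPKM in S8. The S5 libraries lay above all S3 libraries, and it rose from S3 to S5 by 2.76 on the log2 scale (SE 0.35, adjusted p = 1.22e-06 by limma) and from S5 to S6 by 1.17 (adjusted p = 0.0147). Its mean was 587 RPKM in C4 and 559.8 RPKM in SX. In S5 the 7 members summed to 3.81 RPKM and SMED30008553 alone had 249.7 RPKM, whereas in S2 it had 53.7 RPKM against their 1149.

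Lactate dehydrogenase, which interconverts pyruvate and lactate, was represented by SMED30032579 and SMED30033111. SMED30032579 had 566, 400.4, 1258 and 675 RPKM in S2, 204, 1146, 76.5 and 22.2 RPKM in S3, 18.4 to 73.1 RPKM in S4 and 0.670 to 1.01 RPKM in S5, a fall of 7.20 from S3 to S5 on the log2 scale (SE 0.67, adjusted p = 2.21e-08 by limma). Another 3 members matched 6-phosphogluconate dehydrogenase, a source of NADPH, with S2 means of 73.9 to 219.8 RPKM. Glycogen phosphorylase, which releases glucose units from glycogen, had 153 ± 59.6 RPKM in S2 and 1.75 ± 1.12 RPKM in S5 for the member SMED30011428. The other glycogen phosphorylase transcript, SMED30012386, had 31.5 RPKM in S2, did not pass the test from S3 to S5 (log2 fold change -0.08, SE 0.36, adjusted p = 0.908 by limma) and rose from S5 to S6 by 1.33 (adjusted p = 0.00688), reaching 119 RPKM in S8. Outside copies of the other enzymes also fell from S3 to S5. The lactate dehydrogenase SMED30009264 fell by 3.29 on the log2 scale (SE 0.70, adjusted p = 0.000607 by limma). The 6-phosphogluconate dehydrogenase SMED30021922 fell by 3.58 (SE 0.82, adjusted p = 0.00126 by limma). Its mean was 0.670 RPKM in S5, 1.64 RPKM in S8 and 3.74 RPKM in C4, with no call from S5 to S6 or from S6 to S8. All 13 carbon metabolism members fell from S3 to S5 and 5 of 13 from S5 to S6 (199 and 58 of all 200 members).

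Transporters had 6 members. Of these 4 matched monocarboxylate transporter 12, a member of a family of carriers for small organic acids, and SMED30025959 had the highest S2 mean of them, 231 ± 113 RPKM, against 1.94 ± 0.503 RPKM in S5. A pair matched the mitochondrial dicarboxylate carrier (SMED30001165 and SMED30010671), which exchanges malate and succinate for phosphate, at 183 and 159 RPKM in S2. All 6 fell from S3 to S5 and 3 of 6 from S5 to S6 (199 and 58 of all 200 members). Of 20 further transcripts named as monocarboxylate transporters, 8 fell and 3 rose from S3 to S5.

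Innexins are the gap junction proteins of invertebrates and connect the cytoplasm of neighbouring cells. The innexin unc-9 transcript SMED30000077 had 512, 330.4, 889.9 and 696 RPKM in S2, 369, 806, 19.8 and 33.1 RPKM in S3, 52.6 to 177 RPKM in S4 and 2.37 to 5.53 RPKM in S5. It fell from S3 to S5 by 5.24 on the log2 scale (SE 0.86, adjusted p = 3.34e-05 by limma). SMED30013987, an innexin-19, had 378, 224, 686 and 450.1 RPKM in S2 and 1.56 to 2.19 RPKM in S5, and the other innexin-19, SMED30026536, had 90.5 RPKM in S2. In S3 replicate 3 both abundant innexins lay below all S4 libraries, at 19.8 and 19.1 RPKM. Of 36 further annotated innexin transcripts 5 fell and 13 rose from S3 to S5, and 4 fell and 24 rose from S5 to S6.

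Endophilins bend membranes during endocytosis, and 3 members matched them: SMED30016908, SMED30030688 and SMED30010489, with S2 means of 314, 205 and 100.3 RPKM and S5 means of 1.48, 0.656 and 0.310 RPKM. The endophilin outside the members, SMED30020617, also fell from S3 to S5, by 3.54 on the log2 scale (SE 0.82, adjusted p = 0.00132 by limma). Its mean was 81.7 RPKM in S3, 6.02 RPKM in S5, 23.2 RPKM in S6 and 30.2 RPKM in C4. The 3 members summed to 0.498 RPKM in S6 and 0.155 RPKM in C4. From S5 to S6 the log2 fold change of SMED30020617 was 2.06 and was not called (SE 0.82, adjusted p = 0.0675 by limma). That rise was called in 8 of 43 settings of the fit. Both zinc finger proteins with A20 and AN1 domains, named for a role in stress responses of plants, were SMED30011373 and SMED30034834. SMED30011373 had 131, 97.5, 330.3 and 133 RPKM in S2 and 159, 323, 44.5 and 7.94 RPKM in S3. Both fell from S3 to S5 and again from S5 to S6, which 2 of the 6 innexin and endophilin members also did.

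The members with the clearest further falls had no hit or were named above. From S3 to S5 the smallest adjusted p values were those of SMED30008512 (no hit; 4.46 to 173 RPKM in S3 and 0, 0, 0.184 and 0.218 RPKM in S5), SMED30032579 and SMED30011166 (no hit; log2 fold change -5.82, SE 0.59, adjusted p = 9.01e-08 by limma). From S5 to S6 they were those of SMED30025002, SMED30006790 and SMED30012849. From S6 to S8 the members called were SMED30006790, with 1.16 to 2.55 RPKM in S6 and 0.193 to 0.347 RPKM in S8 (log2 fold change -2.37, SE 0.55, adjusted p = 0.00452 by limma), and SMED30033700, with 0.445 to 1.55 RPKM in S6 and 0.0481 to 0.302 RPKM in S8 (-2.44, SE 0.70, adjusted p = 0.0246). Both were lost at a pseudocount of 1 RPKM, with adjusted p values of 0.146 and 0.326.

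A few members, singled out after their values were seen, did not follow the common order of embryos. Both mmp1 transcripts were high in replicates 1 and 2: SMED30004655 had 117, 78.4, 27.7 and 4.83 RPKM in S2 and 40.7, 86.7, 9.58 and 10.6 RPKM in S3, and SMED30005906 had 110.1, 91.1, 20.8 and 1.03 RPKM in S2 and 74.3, 102, 6.48 and 10.7 RPKM in S3. SMED30025951, without a hit, had 174, 106, 24.8 and 19.6 RPKM in S2. In S2 these 3 members ranked the embryos as gelsolin-like, spondin1-like and the pharynx marker netrin-like did, highest in replicate 1 and lowest in replicate 4. The other pharynx markers, VAL-like and both MPEG1-like, were highest in S2 replicate 2. SMED30026463 was also highest in S2 replicate 1 and lowest in replicate 4, but only 1.91-fold apart. In S3 replicate 4 gelsolin-like was at 471 RPKM and the mmp1 transcripts at 10.6 and 10.7. SMED30018217, matching the core protein of a basement membrane heparan sulfate proteoglycan, departed from the common order only in S3. It had 11.3, 3.96, 250.4 and 187 RPKM in S2, highest in replicate 3 and lowest in replicate 2 like most members, though with a wider range. In S3 it had 2.30, 56.4, 373 and 0.631 RPKM, highest in replicate 3, and it was the member with the highest S3 to S2 ratio (0.956).

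In S3 the ratio to S2 separated a few other members from the rest. After SMED30018217 the highest ratios were those of a cytidine deaminase, an enzyme of pyrimidine salvage (SMED30028528, 0.886), and of the A20 and AN1 protein SMED30034834 (0.881). The lowest belonged to SMED30029109 (0.137), to SMED30029646 (0.288), which matched lengsin, a lens protein related to glutamine synthetase, and to SMED30031170 (0.331). All of these rest on the same 4 S3 embryos. Without S3 replicate 2 the median ratio of the 200 members was 0.244, and without replicate 4 it was 0.679.

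In adults the members were near the floor of detection. The median member had 0.0246 RPKM in C4 and 0.0143 RPKM in SX, and 33 members had no read in any C4 library and 71 none in any SX library. The highest C4 means were those of SMED30027923 (no hit; 1.32, 0.447, 1.93 and 1.66 RPKM), SMED30029908 (0.603 to 1.73 RPKM) and the ICP0-type ligase SMED30004839 (0.775 RPKM). SMED30027923 was at 0.0341 RPKM in SX, where the choice of members had set a limit. In S8, 3 members had a mean of at least 1 RPKM, SMED30029908, SMED30022810 and SMED30017719, a DnaJ co-chaperone with 1.23 ± 0.396 RPKM.

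The edges of the choice were not sharp. The last members by S2 mean were SMED30004849, SMED30035245 and SMED30017097 at 44.9, 44.6 and 44.5 RPKM, and the next transcripts, SMED30027642, SMED30021973 and SMED30018256, were at 44.0, 44.0 and 43.9 RPKM. Among transcripts at least as abundant in S2 as the last member, 47 missed the choice only by the S4 limit, 19 only by the SX limit, 6 only because another group mean was higher, and 0 only by the yolk limit. The innexin SMED30007130, at 389 RPKM in S2, had an S4 to S2 ratio of 0.2001 and stayed outside, as did SMED30000124, whose S3 mean of 301 RPKM exceeded its S2 mean of 275 RPKM. The yolk limit was far from the members, of which SMED30006790 had the highest ratio of Y to S2 means, 0.0252.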

How the data were processed

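RNA was measured in 40 libraries. Per the labels and the study's methods, polyadenylated RNA was sequenced as single 50-base reads (CASAVA 1.8.2), mapped with Bowtie 1.0.0 to a transcriptome assembly (2 mismatches, up to 5 matches per read), counted per transcript and deposited by the authors as RPKM values whose library sizes carry TMM factors from edgeR. In these values 1 read is a fixed step, and 99.93% of values gave whole reads within 0.01 reads. Only the rebuilt reads give the depth.

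In R 4.3.3, log2(RPKM + 0.1) values entered a linear model per transcript in limma 3.58.1, moderated by eBayes with an intensity trend. This scale understates the change of low transcripts. The 31489 transcripts whose RPKM summed to at least 1 over the 32 yolk and embryo libraries were tested, with Benjamini-Hochberg adjustment. Adults were left out of the fit. Python 3.11.15 made the tables. The fit was also run on simulated data, S6 against S5, with the same spread between libraries in every group. That setting lacks the wide spread of the S3 embryos, so it does not show how the fit behaves with it. Members, role groups and markers were chosen with earlier results of these data known.

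Members were named if among the 10 highest in S2, in a family of at least 2 members, among the 3 with the smallest adjusted p per comparison and direction without overlap, among the 3 highest or lowest S3 to S2 ratios or the 3 highest C4 means, or at an edge of the choice; up to 2 other copies per family were named. Alternatives tried were a pseudocount of 0.01 or 1 RPKM, leaving the filter out, a filter of 1 RPKM in 4 libraries, quantile normalization, RPKM without TMM factors, a fit of the 2 groups alone, a replicate block, voom on rebuilt reads, each library left out, group medians for the choice, and, added after the data were seen, S3 without replicates 3 and 4. Further copies were sought only in the annotation tables of the study (3951 transcripts), which list transcripts it found enriched at a stage.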

Additional observations from a re-analysis of the deposited data

Results flagged for a closer look

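In 6 of 50 groups of 4 libraries 1 library lay far from the other 3, by the gap to its nearest neighbour as a share of the group's range (Dixon's test at 95%, which chance passes in about 1 of 20 groups). The summed RPKM of the members in yolk gave 0.977 and their share of reads 0.854, both through yolk replicate 2 (267 RPKM against 59.9 to 64.6), where 125 members were highest among the yolk libraries and VAL-like had 19.4 RPKM against at most 1.22 in the others. The share of reads in S2 gave 0.890, through replicate 3 (3.84% against 2.50 to 2.65%). The summed RPKM in C4 gave 0.885 (15.2 in replicate 1 against 17.2 to 17.4). SMED30032223 gave 0.919 in S4 (122 RPKM in replicate 2 against 188 to 194), and the lactate dehydrogenase SMED30032579 gave 0.839 in S3 (1146 RPKM in replicate 2 against 22.2 to 204). The part of embryonic RNA in yolk replicate 2 was not tested.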

How the results depend on the processing

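The fall from S3 to S5 was called in 198 to 200 members under every alternative and left-out library, with 0 rising. Members lower in S6 than in S5 numbered 9 at a pseudocount of 1 RPKM, 103 with quantile normalization, 30 without TMM factors, 114 in a fit of the 2 groups alone (which also called 1 higher), 19 with voom and 109 without S3 replicates 3 and 4 (chosen after seeing the data), against 58, and 22 to 90 with 1 library left out (26 without S5 replicate 1, 36 without S5 replicate 4). Members lower in S8 than in S6 numbered 0, 7, 6, 52, 1 and 11 in the same order, against 2, as well as 6 at a pseudocount of 0.01 RPKM, and 1 to 7 with 1 library left out. With replicate number as a block the counts were 199, 57 and 2. The deviations of same-numbered samples were at most weakly correlated (-0.05 to 0.11). The study pooled 1 replicate of each embryo stage, of yolk and of C4 per sequencing lane. The labels do not say whether the number marks the lane, so pairing by lane could not be checked. Over all transcripts the share of calls that were lower was 27.4% from S3 to S5, 29.2% from S5 to S6 and 29.0% from S6 to S8, against 42.1, 49.8 and 53.7% with quantile normalization and 8.45, 4.67 and 16.8% without TMM factors, which moved the median of all transcripts to 0.85, 0.85 and 0.26. SMED30033700 lost its call from S6 to S8 in 9 settings (adjusted p 0.0021 to 0.326 over all by limma), SMED30006790 in 2, and from S5 to S6 SMED30006790 lost it with voom and SMED30012849 at a pseudocount of 0.01 RPKM. The choice of members found 305 transcripts, 275 without TMM factors, 306 with group medians and 256 to 320 with 1 library left out, and 191, 197 and 169 to 200 of the members met it again. The median S3 to S2 ratio was 0.350 with group medians and 0.244 to 0.679 with 1 library left out, and without the most abundant member the members took 2.12% of S2 reads. Low levels in S6, S8 and adults rest on few reads per transcript. The fit also shares 1 estimate of spread per transcript over all groups, so the wide spread of the S3 embryos enters the later comparisons. The median SE of the members was 0.72 in each comparison. What limited the calls at the later stages was not tested.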
